A study of Mus musculus with 16 samples.

Results

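A set of 10 genes of the insulin-like growth factor, insulin and mTORC1 pathway was followed in skeletal muscle fibres: Igf1, Igf1r, Igfbp5, Insr, Irs1, Irs2, Tsc1, Tsc2, Ddit4 and Sesn1. They were chosen by gene symbol, with earlier results of these data known, and all 10 were found among the 23222 genes of the deposited tables. RNA was taken from myofibers of the extensor digitorum longus, a fast hindlimb muscle, after the mononucleated cells attached to them had been stripped off. The 16 libraries came from male C57BL/6 mice in 4 groups of 4: young controls and young runners at 4 months of age, and old controls and old runners at 22 months. Runners had a wheel for voluntary running for 5 weeks, and the labels describe the other groups only as control. The labels name no genetic change in any group. Whether each library is a separate mouse is not said in the labels, so p-values measure the spread between libraries, which may be in part technical. The libraries are called here by the column names of the tables: Yc4, Yc5, Yc7 and Yc8 (young controls), Y1ex to Y4ex (young runners), Oc1 to Oc4 (old controls) and O1ex to O4ex (old runners).

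Insulin-like growth factor 1, encoded by Igf1, is made by liver and also within muscle, where it promotes growth of the fibre. It binds the receptor tyrosine kinase encoded by Igf1r, a close relative of the insulin receptor encoded by Insr, and secreted binding proteins such as that of Igfbp5 hold it and change how much reaches the receptor. Both receptors phosphorylate the substrates encoded by Irs1 and Irs2, which pass the signal to PI3K and AKT. AKT inhibits the complex of the Tsc1 and Tsc2 products, which in turn holds back the small GTPase RHEB and so the kinase complex mTORC1, a driver of protein synthesis. Ddit4 (also known as REDD1) is induced by stress and keeps the TSC complex active, and Sesn1 encodes a leucine-sensing protein that restrains mTORC1 through the amino acid arm.

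Tsc2 and Igfbp5 are the members with the largest positive averaged running effects on the deposited log2 scale. They also varied together over the libraries (r = 0.90 on log2 normalised reads). Irs1 and Irs2 encode the paired receptor substrates. RefSeq promoter entries (GRCm38.p6, the build called mm10) were found for 9 of the 10 members, Insr being the member without one. The 250 bases before the annotated start of Tsc2 (chr17:24632628-24632877, minus strand) and of Igfbp5 (chr1:72874866-72875115, minus strand) are shown because these genes moved together, and 60-base windows of Irs1 (chr1:82291522-82291581, minus strand) and Irs2 (chr8:11008941-11009000, minus strand) because both hold the E-box CACGTG. A 29-base window of Sesn1 (chr10:41810585-41810613, plus strand) is shown because it holds the FOXO motif.
Tsc2 promoter: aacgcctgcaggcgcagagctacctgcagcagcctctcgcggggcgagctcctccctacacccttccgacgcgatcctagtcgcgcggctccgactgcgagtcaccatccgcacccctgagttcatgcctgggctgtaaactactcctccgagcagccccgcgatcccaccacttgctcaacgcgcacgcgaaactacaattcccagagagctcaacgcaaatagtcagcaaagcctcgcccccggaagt
Igfbp5 promoter: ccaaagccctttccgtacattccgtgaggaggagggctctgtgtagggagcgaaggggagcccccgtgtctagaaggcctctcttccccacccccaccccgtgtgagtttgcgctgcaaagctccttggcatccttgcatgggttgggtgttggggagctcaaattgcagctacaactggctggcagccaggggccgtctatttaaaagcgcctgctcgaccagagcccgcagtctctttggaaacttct
Irs1 window: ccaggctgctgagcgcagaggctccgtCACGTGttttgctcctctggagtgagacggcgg
Irs2 window: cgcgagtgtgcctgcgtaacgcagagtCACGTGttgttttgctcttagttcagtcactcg
Sesn1 window: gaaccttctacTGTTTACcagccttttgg
Each is printed from 5′ to 3′ on the gene's own strand, and capitals mark the motif.

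A set of 3 motifs was searched by its letters on both strands in windows of 300 bases, from 250 before to 50 after the start: the E-box CACGTG, the FOXO motif GTAAACA, which on the other strand reads TGTTTAC, and the cyclic AMP response element TGACGTCA. No match overlapped another. The E-box stood 115 bases before the start of Irs1 and 44 before that of Irs2, and 7.15% of all 32851 promoter entries held it. Sesn1 has 2 entries with different starts: the FOXO motif stood 22 bases after the first start and was not in the window of the other. It was held by 3.65% of all entries. The cyclic AMP response element was in 1.79% of all entries and in no entry of a member. These are matches of letters and not measured binding sites.

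Values are given as normalised reads, the reads recovered from the deposited log2 values and divided by 1 size factor per library over all 16 libraries. Correlations between genes, and those of libraries with their group, were computed on log2 of normalised reads plus 1. Differences are in log2 units on the deposited scale, which compresses low genes, so the log2 difference of a low gene understates its change. Libraries held 30.7 to 67.4 M assigned reads (median 46.9 M), and 12694 to 17565 genes had a read. Acta1, skeletal muscle actin, took 3.28% to 6.16% of the reads, and all 8 fibre markers had reads in every group. Reads of other cell types were present: for fibro-adipogenic progenitors, which make connective tissue in muscle, the summed level of 10 markers was 61.6 to 627 normalised reads in young controls, 4027 to 11988 in young runners, 237 to 2025 in old controls and 1976 to 3970 in old runners. Pdgfra, a defining marker of these cells, had no read in either old group. In bulk RNA, fewer cells of a type and less RNA per cell cannot be told apart. The mean correlation with the other libraries of its group was lowest for Oc1 (0.813) and Yc4 (0.834), and values without them are given beside the members they moved most.

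Counts over the members differed between the comparisons. With limma and an adjusted p under 0.05, running in old mice gave 1 of the 9 members tested, Tsc2, against 0.128% of the 9379 genes tested. There 3 members had an unadjusted p under 0.05 (17.4% of all genes), and 0 passed by limma with voom. Running in young mice gave 0 of 10 members (0.762% of all genes), with 3 members at an unadjusted p under 0.05 (17.4% of all genes) and 0 by voom. Old controls against young controls gave 0 of 10 (0.112% of all genes), with 4 members unadjusted (11.2% of all genes) and 0 by voom. Old runners against young runners gave 0 of 10 (0.0213% of all genes), with 2 unadjusted (4.91% of all genes) and 0 by voom. Igf1 was among the unadjusted members in both age comparisons. It passed the filter on low values through the young libraries alone, so its direction there was built into its being tested. When the effect of running was averaged over both ages in 1 fit, 3 of 9 members passed, against 9.92% of all genes: Tsc2 and Igfbp5 rose and Igf1r fell, while 6 members had an unadjusted p under 0.05 (28.7% of all genes) and 1, Tsc2, passed by voom. The difference of the running effect between the ages passed for 0 of 9 members (0% of all genes), with 0 members unadjusted (6.25% of all genes) and 0 by voom. The counts by voom stand without a share of all genes and are not read as a result about the members. These comparisons share libraries, so their values are set side by side and not counted as independent.

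**Figure D1:**
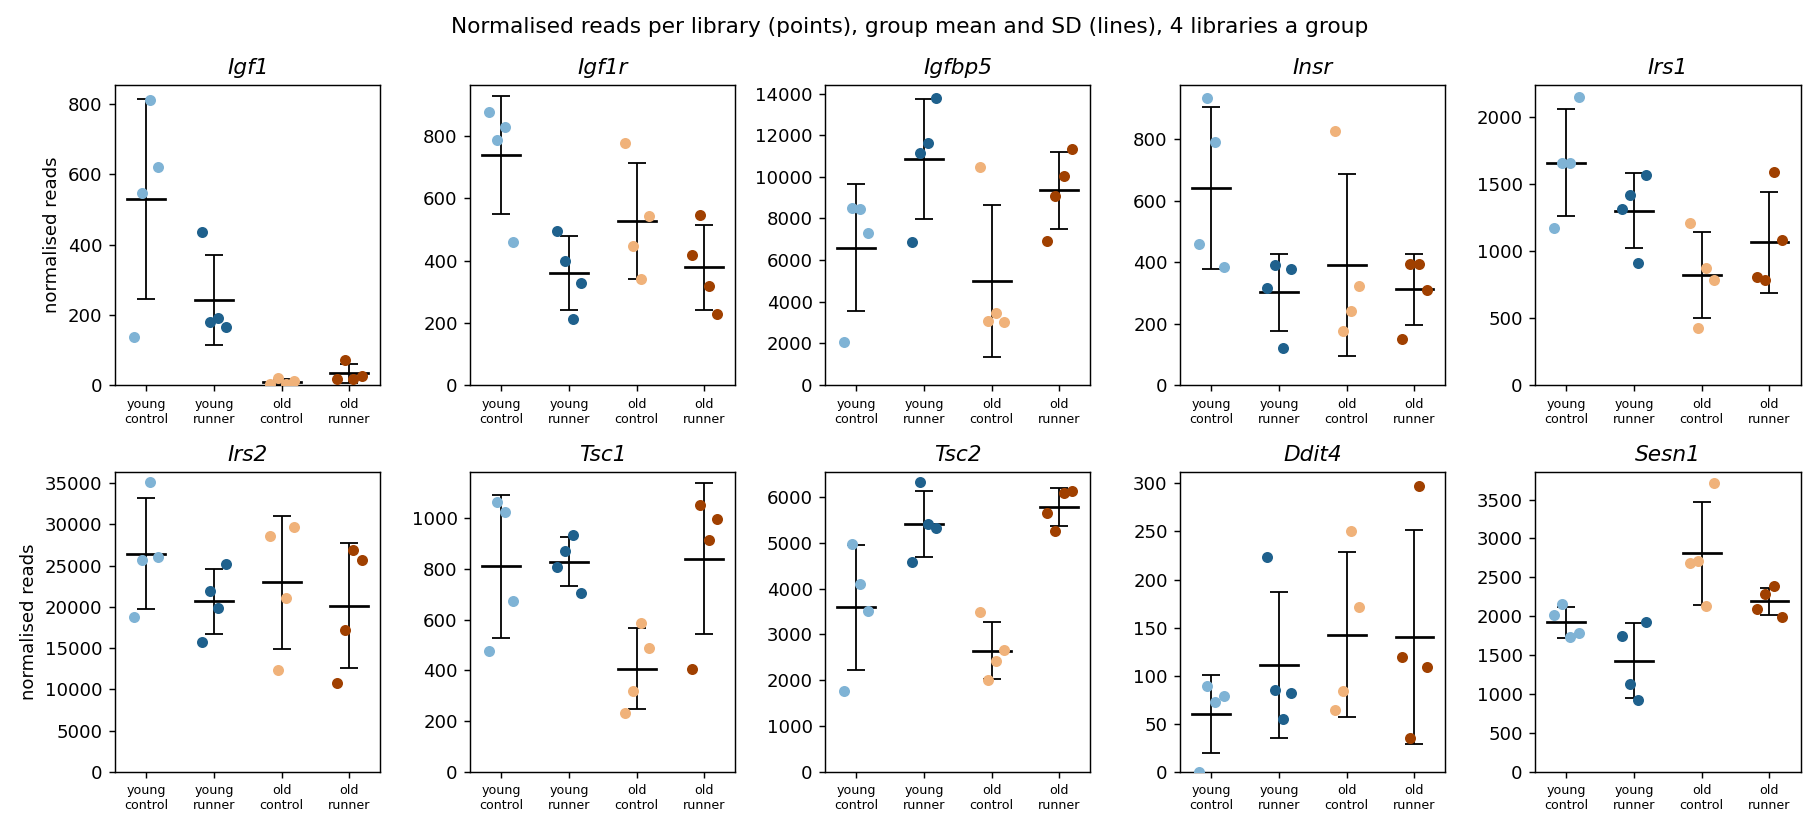
Normalised reads (vertical axis, linear from 0) of the 10 genes in each library of the 4 groups (horizontal axis); points are libraries, and lines the group mean and SD of 4 libraries. Tsc2 of the old runners sits between 5262 and 6138, above every old control, and Igf1 of both old groups sits below every young library.

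Per kilobase of exon, the only scale here on which genes can be compared with each other, Irs2 led every group and Igfbp5 came second. Irs2 stood at 4179 ± 1061 normalised reads per kb in young controls, 3271 ± 625 in young runners, 3631 ± 1267 in old controls and 3186 ± 1201 in old runners (SD, n = 4). The libraries of Irs2 and Igfbp5 overlapped in old runners and in no other group. The middle of the order was held by Sesn1, Tsc2 and then Irs1. Sesn1 held place 3, above Tsc2, in both control groups (483 ± 49.3 in young and 705 ± 167 in old controls). Tsc2 held place 3, above Sesn1, in both runner groups (562 ± 74.6 in young and 601 ± 42.6 in old runners). The libraries of Sesn1 and Tsc2 overlapped except in old controls. The receptors were low and close to each other: Igf1r ranged from 21.4 to 44.0 and Insr from 21.9 to 46.7 reads per kb over the 4 group means, and their libraries overlapped in every group. Igf1 held place 7 in young controls, place 8 in young runners and the last place in both old groups, where none of its libraries reached those of the gene above it.

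Igf1, the ligand, was the member with the largest difference by age. Young controls had 136, 547, 812 and 620 normalised reads, in the order Yc4, Yc5, Yc7 and Yc8. Young runners (Y1ex to Y4ex) had 436, 180, 190 and 165. Old controls (Oc1 to Oc4) had 1.9, 20.3, 2.4 and 12.1, and old runners (O1ex to O4ex) had 18.4, 72.3, 17.7 and 24.5. The highest old library, O2ex, thus lay below the lowest young one, Yc4.

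The mean of Igf1 was 57.7-fold higher in young than in old controls (529 ± 285 against 9.16 ± 8.74, SD, n = 4) and 7.30-fold higher in young than in old runners (243 ± 129 against 33.3 ± 26.2). In each age comparison the groups of 2 of the 10 members, Igf1 and Sesn1, did not overlap on the deposited scale, against 7% of all genes in controls and 3.38% in runners. On the deposited scale the difference was -1.89 in controls (SE 0.30, 95% interval -2.56 to -1.22, adjusted p = 0.0533), the 13th smallest p of 9831 genes. It missed the threshold with all 8 libraries and passed without Yc4, the young control with the least Igf1 (-2.21, adjusted p = 0.00242), and without Oc1 and Yc4 together (-2.16, adjusted p = 0.0029). In runners it was -0.89 (SE 0.19, adjusted p = 0.386). Igf1 passed the filter on low values in both age comparisons through the young libraries alone, since 0 of 8 old libraries reached it, so a difference in this direction was built into its being tested. Macrophages are a known source of Igf1 in muscle. Mrc1, a marker of tissue macrophages, had 208 to 356 normalised reads in young and 0 to 48.2 in old controls (log2 difference -1.56, adjusted p = 0.0448), and like Igf1 it could enter that test only through the young libraries. In runners its levels overlapped by age (means of 66.0 in young and 53.3 in old). Of the 9 macrophage markers 2 could be tested between the control ages, and 0 of these had a difference above 0 (median -0.94). Csf1r and C1qa had reads in young controls and none in old controls. Some other macrophage markers had higher means in old than in young controls, among them Lyz2 (83.8 against 17.7) and Cd14 (41.5 against 9.20), with overlapping libraries. The summed level of the 9 macrophage markers overlapped (548 to 2552 in young and 306 to 1166 in old controls), and Adgre1, a defining marker, had no read in any group. The part of these cells in the Igf1 difference was not tested.

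Running was not accompanied by a called difference in Igf1. Young runners had a mean of 243 against 529 in young controls, and the libraries overlapped through Yc4 alone, which lay below all 4 runners (log2 difference -0.69, SE 0.37, adjusted p = 0.356). Without Yc4 the difference was -1.06 (adjusted p = 0.0687). In old mice Igf1 was under the filter, and without the filter the difference was 0.27 (adjusted p = 0.456), from a mean of 9.16 in controls to 33.3 in runners. Without the filter the running effect differed between ages by 0.96 (95% interval 0.05 to 1.87, adjusted p = 0.729). Y1ex, the young runner with the most Igf1, also had the highest sums of all libraries for the markers of fibro-adipogenic progenitors (11988), macrophages (2767) and endothelial cells (6049). Yc4, the young library with the least Igf1 (136), had the lowest sum for fibro-adipogenic progenitors (61.6) but a macrophage sum of 2552. The part of these cells in the Igf1 values of Y1ex and Yc4 was not tested.

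Igfbp5, the binding protein, had a higher mean in runners at both ages, with 1 library in each control group standing apart. Old controls had 10478, 3062, 3479 and 3022 normalised reads, and old runners 6933, 9065, 10026 and 11361. Young controls had 2080, 8505, 8469 and 7320, and young runners 6886, 11134, 11606 and 13793. Oc1 lay among the runners, and Yc4 far below its group. In old mice the mean was 5010 ± 3651 in controls and 9346 ± 1864 in runners (log2 difference 1.03, SE 0.33, adjusted p = 0.169), and the difference passed without Oc1 (1.43, adjusted p = 0.00813). In young mice it was 6593 ± 3059 and 10855 ± 2888 (0.84, SE 0.41, adjusted p = 0.318), and without Yc4 the young difference was smaller (0.37, adjusted p = 0.396).

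Averaged over ages, Igfbp5 rose by 0.93 (SE 0.29, 95% interval 0.32 to 1.54, adjusted p = 0.0495), just inside the threshold. Of the 16 fits that left out 1 library, 4 kept the call (those without Oc1, Y1ex, Yc5 or Yc7), while the size stayed between 0.70 and 1.13. Without Oc1 and Yc4 it was 0.90 (adjusted p = 0.00245). By age, Igfbp5 did not pass in controls (-0.38, adjusted p = 0.799) or in runners (-0.18, 95% interval -0.65 to 0.29). Without Oc1 and Yc4 the control difference became -1.24 (adjusted p = 0.00537), so that the call depends on these 2 libraries.

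Both receptors had lower means in young runners than in young controls. Igf1r had 879, 788, 831 and 460 normalised reads in young controls and 496, 398, 214 and 330 in young runners, so that only Yc8 fell within the runners' range. Old controls had 780, 447, 341 and 545 and old runners 417, 547, 320 and 228, with most libraries intermingled. The mean in young mice went from 739 ± 190 to 359 ± 119 (log2 difference -0.78, SE 0.24, adjusted p = 0.143), and went from 528 ± 187 to 378 ± 137 in old mice (-0.28, SE 0.20, adjusted p = 0.513). Averaged over ages, Igf1r fell by 0.53 (SE 0.16, 95% interval -0.86 to -0.20, adjusted p = 0.0437). That call held in 4 of the 16 fits without 1 library (those without O2ex, Oc3, Y1ex or Yc8), with sizes of -0.61 to -0.46, and missed the threshold without Oc1 and Yc4 (-0.43, adjusted p = 0.0999). By age the difference was -0.33 in controls (adjusted p = 0.608) and 0.04 in runners (95% interval -0.38 to 0.46).

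Insr, the insulin receptor, had 458, 935, 791 and 383 normalised reads in young controls and 317, 389, 121 and 378 in young runners. Old controls had 826, 177, 240 and 321, and old runners 149, 394, 394 and 308. The young groups overlapped only at Yc8 and Y2ex, and among the old libraries Oc1 was the highest. The log2 difference was -0.78 in young mice (SE 0.30, adjusted p = 0.217), -0.11 in old mice (95% interval -0.70 to 0.49, and 0.15 without Oc1) and -0.44 averaged over ages (adjusted p = 0.174). Its running effect was 0.68 higher in old than in young mice (95% interval -0.21 to 1.56, adjusted p = 0.843), the largest such difference among the 9 members tested, and did not pass. Over the 16 libraries Igf1r and Insr had a Pearson r of 0.71 (Spearman 0.67), and 0.57 after each group's mean was removed. These values are a description over libraries that share their depth and scaling.

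**Figure D2:**
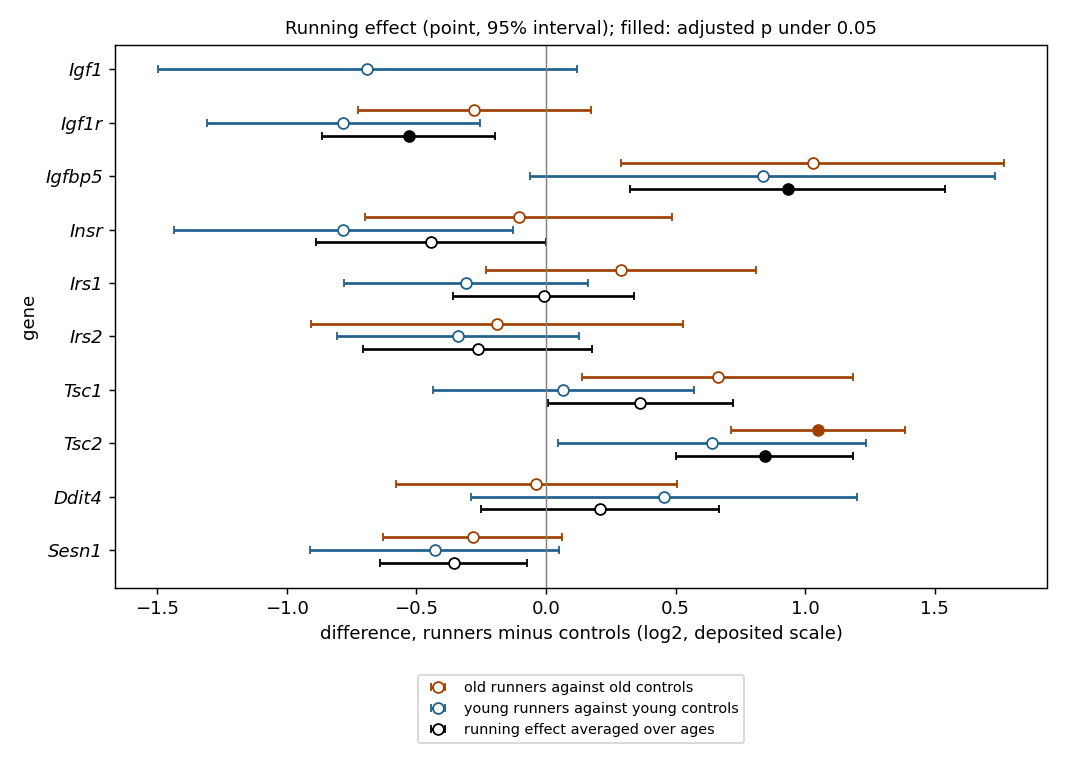
Running effect (runners minus controls, log2 on the deposited scale, horizontal axis) of each gene in old mice, in young mice and averaged over both, as points with 95% intervals; filled points passed an adjusted p of 0.05. Tsc2 is filled in old mice (1.05) and in the average (0.84), Igfbp5 (0.93) and Igf1r (-0.53) in the average only, and Igf1 has no value where it was under the filter.

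The receptor substrates did not pass in any comparison. Irs1 had 1170, 1655, 1657 and 2150 normalised reads in young controls and 1205, 424, 872 and 782 in old controls, and Oc1 and Yc4 were the libraries that overlapped. Young runners had 1314, 1416, 909 and 1562 and old runners 806, 783, 1591 and 1081. The mean was 2.02-fold higher in young than in old controls (log2 difference -0.82, SE 0.24, adjusted p = 0.251), and the difference passed without Oc1 and Yc4 (-1.11, adjusted p = 0.0247). Running gave 0.29 in old mice (adjusted p = 0.559) and -0.31 in young mice (adjusted p = 0.477).

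Irs2, the more abundant substrate, had 12399 to 29711 normalised reads in old controls (median 24862) and 10755 to 26893 in old runners (median 21469). It had 18812 to 35166 in young controls (median 25862) and 15759 to 25177 in young runners (median 20892), and all 4 groups overlapped. Over the 4 pairs of groups the log2 differences lay between -0.34 (running in young mice) and -0.10 (age in runners), with intervals that included 0. Per kilobase, Irs2 exceeded Irs1 by a median of 22.8-fold in young controls, 22.9-fold in young runners, 38.7-fold in old controls and 28.1-fold in old runners. The ratio in old controls (34.4 to 54.9) lay above that in young controls (17.5 to 30.7) in every library. This ratio was chosen with these values known and has no test.

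Among the brakes, Tsc2 separated runners from controls most clearly. Old controls had 3491, 2014, 2409 and 2655 normalised reads and old runners 5644, 5262, 6078 and 6138. Every old runner lay above every old control, which held in the higher direction for 4.86% of all genes. Young controls had 1764, 4976, 4092 and 3521, and young runners 4572, 6324, 5412 and 5315. Here Yc5 lay above Y1ex and Yc4 was far below the rest.

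The mean of Tsc2 was 2.19-fold higher in old runners (5781 ± 410) than in old controls (2642 ± 625), a log2 difference of 1.05 (SE 0.15, 95% interval 0.71 to 1.38, adjusted p = 0.0458), the 5th smallest p of 9379 genes. The size held without any 1 library (0.95 to 1.17), but the call was lost without Oc2, Oc3, Oc4 or any of the 4 old runners (adjusted p = 0.0549 to 0.185), and passed without Oc1 (adjusted p = 0.00813). In young mice the mean was 1.51-fold higher in runners (5406 ± 718 against 3589 ± 1356, log2 difference 0.64, SE 0.27, adjusted p = 0.254), and without Yc4 the difference was 0.35 (adjusted p = 0.289). Averaged over ages, Tsc2 rose by 0.84 (SE 0.16, adjusted p = 0.00549), and this passed in all 16 fits without 1 library (0.70 to 0.93). The running effect in old mice exceeded that in young mice by 0.41 (95% interval -0.27 to 1.09, adjusted p = 0.889), and by 0.70 without Yc4 (adjusted p = 0.289). By age, Tsc2 did not pass in controls (-0.32, adjusted p = 0.693) or in runners (0.10, 95% interval -0.18 to 0.38). The control difference passed without Oc1 and Yc4 (-0.73, adjusted p = 0.0457).

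Tsc2 (chromosome 17, 24595816 to 24632630, minus strand, GENCODE M21 on mm10) shares 693 exon bases with Pkd1 on the opposite strand, and the labels do not state that counting used strand. Pkd1 had means of 307, 174, 42.5 and 208 normalised reads in young controls, young runners, old controls and old runners, against 2642 to 5781 for Tsc2. Reads of the shared bases cannot be told apart. Pkd1 itself differed by 0.93 with running in old mice (adjusted p = 0.136) and by -0.55 in young mice (adjusted p = 0.551). Of the other members, Irs1 shares 2822 exon bases with Gm9747, and Irs2 shares 162 with 9530052E02Rik, whose group means were 4.6 to 15.7 normalised reads.

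Tsc1, the partner of Tsc2, had 233, 317, 589 and 490 normalised reads in old controls and 404, 1053, 914 and 996 in old runners, with only O1ex among the controls. Young controls had 477, 1066, 1026 and 673 and young runners 808, 871, 933 and 704. The old mean was 2.07-fold higher in runners (842 ± 297 against 407 ± 161, log2 difference 0.66, SE 0.24, adjusted p = 0.201), while the young means were 829 ± 97.6 and 810 ± 284 (0.07, 95% interval -0.44 to 0.57, and -0.11 without Yc4). The difference between ages of these effects was 0.59 (95% interval -0.12 to 1.31, adjusted p = 0.827). Between the control ages Tsc1 stood at -0.65 (adjusted p = 0.352), and between the runner ages at -0.02 (95% interval -0.46 to 0.42). Per kilobase, Tsc2 exceeded Tsc1 by a median of 5.32-fold in young controls and 7.24- to 8.03-fold in the other groups.

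Sesn1 had higher means in old mice, with and without running. Old controls had 2684, 2705, 2126 and 3719 normalised reads and young controls 2012, 2154, 1733 and 1787, with Oc3 just below Yc5 on this scale. On the deposited scale of that table the groups did not overlap (log2 difference 0.48, SE 0.17, adjusted p = 0.327). Old runners had 2096, 2283, 2389 and 1993 and young runners 1750, 1125, 925 and 1923, which did not overlap (0.55, SE 0.18, adjusted p = 0.806). Neither difference passed. Running gave lower means at both ages, 2190 ± 179 against 2808 ± 664 in old and 1431 ± 481 against 1921 ± 196 in young mice, and -0.36 averaged over ages (SE 0.14, adjusted p = 0.0992).

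Ddit4, the stress-induced brake, was low and variable. Young controls had 0, 89.4, 72.2 and 78.7 normalised reads and young runners 224, 85.0, 55.1 and 82.2. Old controls had 63.9, 84.5, 251 and 171 and old runners 119, 34.8, 297 and 109. All 4 groups overlapped, and over the 4 pairs of groups the log2 differences ran from -0.04 (running in old mice) to 0.51 (age in controls), with adjusted p of 0.505 or more. Running in young mice gave 0.45, and 0.15 without Yc4, the library with no read. The highest library of each of the groups young runners, old controls and old runners (Y1ex, Oc3 and O3ex) was also the one with the highest sum of 10 endothelial markers in its group (6049, 5321 and 4396 normalised reads). The same libraries were also the highest of their groups in the sums for smooth muscle and pericytes (2913, 1465 and 2994), adipocytes (862, 1174 and 803) and erythroid cells (829, 912 and 806). The part of these cells in Ddit4 was not tested.

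**Figure D3:**
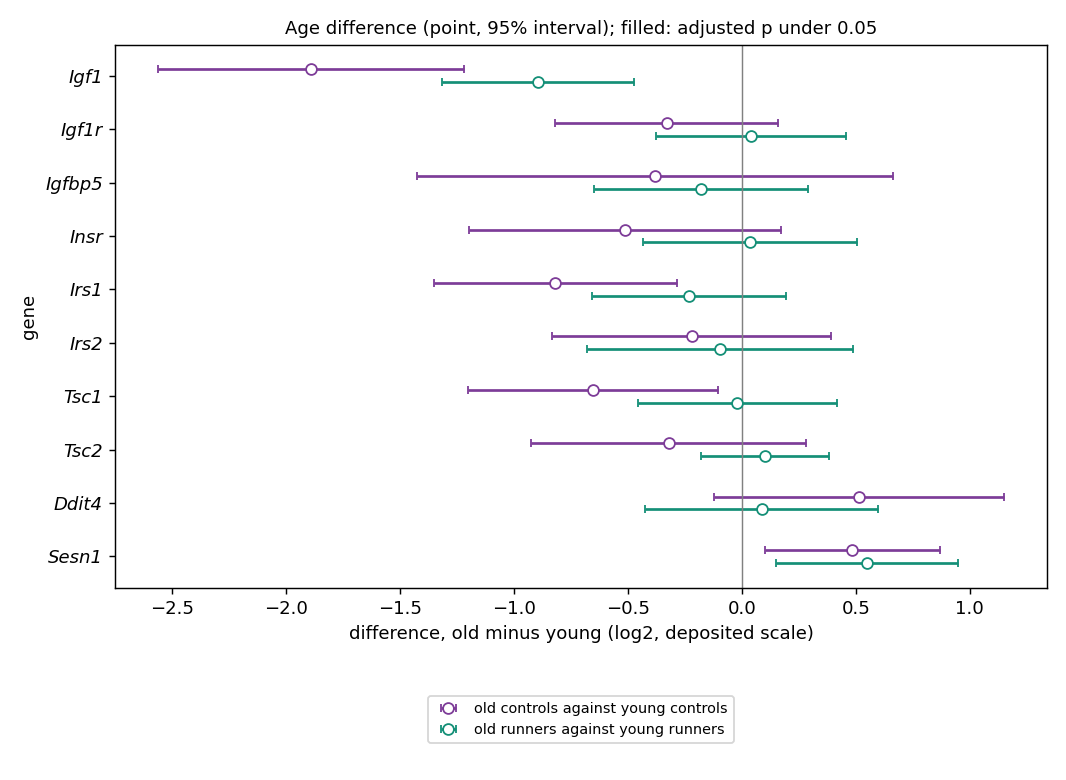
Age difference (old minus young, log2 on the deposited scale, horizontal axis) of each gene in controls and in runners, as points with 95% intervals. No point passed an adjusted p of 0.05; Igf1 lies farthest from 0 (-1.89 in controls, -0.89 in runners) and Sesn1 lies above 0 in both (0.48 and 0.55).

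On log2 normalised reads, Tsc2 and Igfbp5 had the highest correlation of the 45 pairs of members over the 16 libraries (Pearson r = 0.90, Spearman 0.75). It was 0.87 after each group's mean was removed and 0.84 without Oc4 and Yc4, the libraries farthest from the median of Igfbp5. Yc4, the lowest library in both, and Oc1, the highest old control in both, show the pattern within groups. Myh4, the fast myosin heavy chain of this muscle, was also lowest in Yc4 (367494 normalised reads) and, among old controls, highest in Oc1 (1331406). The sum of the 8 fibre markers, Myh4 among them, was closer: 6856385 in Yc4 against 6953766 to 7237611 in the other young controls. Among old controls that sum was highest in Oc1 (7942860). The part of fibre content in these values was not tested. The genes most like Tsc2 among 9108 genes were Ube3b (r = 0.96), Atg9a (0.96) and Plec (0.95), and those most like Igfbp5 were Phka1 (0.96), Itga7 (0.95) and Scn4a (0.95). Igf1r was most like Dpm2 (0.86), Mlxipl (0.86) and Rabepk (0.85). Libraries share depth, scaling and group, so these are descriptions.

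**Figure D4:**
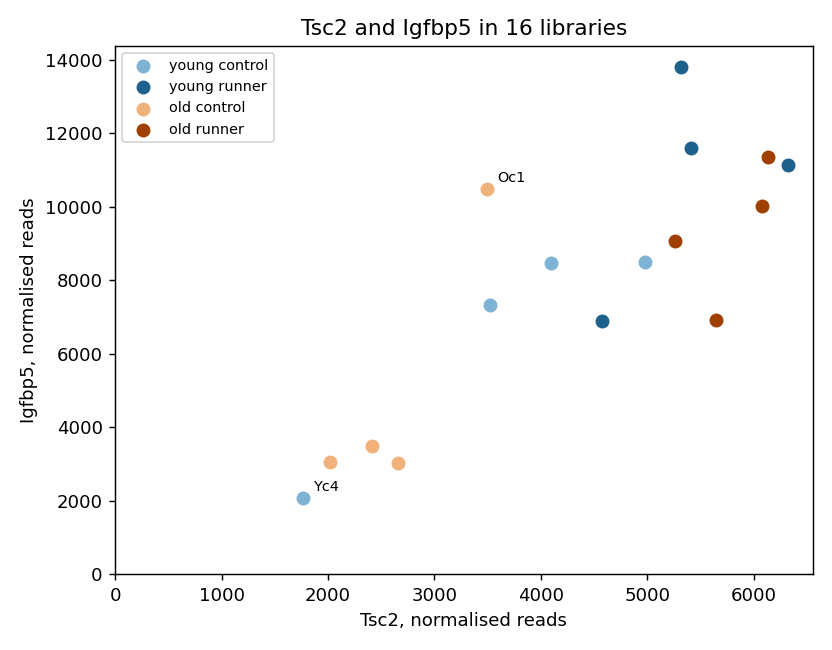
Igfbp5 (vertical axis) against Tsc2 (horizontal axis), both in normalised reads, with 1 point per library coloured by group. The axes are linear, while the Pearson correlation in the text was computed on log2 values. Yc4 lies lowest in Tsc2 (1764) and Igfbp5 (2080), and Oc1 (3491 and 10478) lies apart from the other old controls.

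The pathway around the members was read from 8 lists with 132 other genes. Of the 109 that were tested in the averaged running effect, 6 passed (3 higher and 3 lower), or 5.5% against 9.92% of all genes. An unadjusted p under 0.05 was held there by 40 of the 109 (28.7% of all genes). None passed in the other comparisons (0 of 109 to 113 tested), where 6 to 22 had an unadjusted p under 0.05. For the difference of the running effect between ages these were 7 of 109 (6.25% of all genes). For running these were 22 of 109 in old and 21 of 113 in young mice (17.4% of all genes in both), and by age 16 of 112 in controls (11.2%) and 6 of 111 in runners (4.91%). Prkaa1, a catalytic subunit of AMPK, which activates the TSC complex, rose by 0.91 (SE 0.19, adjusted p = 0.0103), from 690 to 1604 mean normalised reads in young and from 617 to 1222 in old mice. Pik3ip1, an inhibitor of PI3K, fell by 0.65 (adjusted p = 0.00709), from 3232 to 2169 and from 4987 to 2712. Inpp4b, a phosphatase of PI3K lipid products, rose by 0.65 (adjusted p = 0.0378), from 204 to 560 and from 201 to 304. Lamtor3 and Lamtor5 encode parts of the Ragulator, which anchors mTORC1 at the lysosome. Lamtor3 fell by 0.56 (adjusted p = 0.00466) and Lamtor5 by 0.46 (adjusted p = 0.0130). Rab10, a GTPase of glucose transporter traffic, rose by 0.42 (adjusted p = 0.0192).

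By list, the averaged running effect was above 0 in 12 of 12 genes of insulin action on glucose (median 0.25, 1 passed) and in 8 of 9 other receptors and adaptors (median 0.42, none passed). Among all genes tested it was above 0 in 54.9%, with a median of 0.04. The other brakes had 13 of 21 above 0 (median 0.05, 1 passed), the lysosomal amino acid arm 7 of 17 (median -0.06, 2 passed, both lower) and the mTOR complexes with RHEB 7 of 11 (median 0.05, none passed). The PI3K and AKT list had 14 of 20 above 0 (median 0.24, 2 passed), the outputs of mTORC1 10 of 15 (median 0.17, none passed) and the other ligands and binding proteins 3 of 4 (median 0.36, none passed). In the lists without a call, the smallest p belonged to Igfbp7, another secreted binding protein (1.54 in young runners, adjusted p = 0.0619), to Grb14, an inhibitor of the insulin receptor (0.74 in young runners, adjusted p = 0.0711), to Larp1, a translation regulator (0.57 averaged over ages, adjusted p = 0.0509), and to Mlst8, an mTOR subunit (0.86 for the difference between ages, adjusted p = 0.711).

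**Figure D5:**
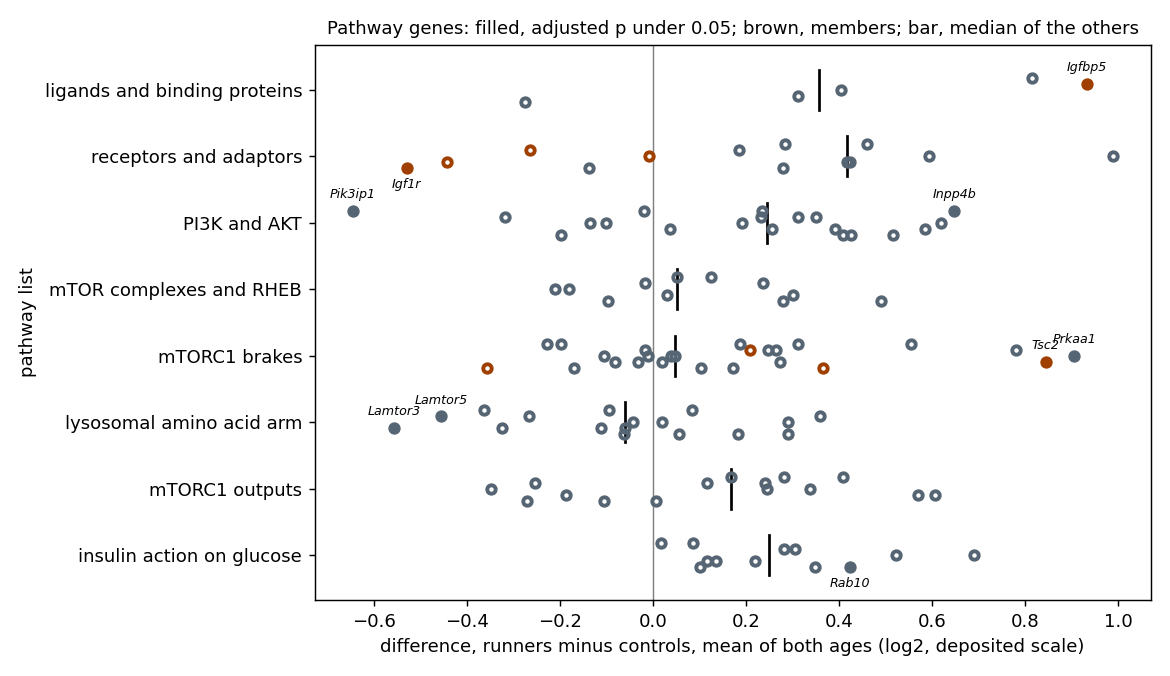
Running effect averaged over ages (log2 on the deposited scale, horizontal axis) of the genes of the 8 pathway lists (rows); filled points passed an adjusted p of 0.05, brown points are members and bars the median of the other genes of a list. Tsc2 (0.84), Prkaa1 (0.91) and Igfbp5 (0.93) lie at the right, and Pik3ip1 (-0.65), Lamtor3 (-0.56) and Igf1r (-0.53) at the left.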

How the data were processed

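RNA of myofibers was measured by bulk RNA-seq in 4 groups of 4 libraries. Per the labels' protocols, total RNA was extracted with a column kit, and 10 ng was amplified with a SMART-Seq v4 kit. Per the submitters' processing notes, Trim Galore, STAR, featureCounts of Subread, DESeq2 and the build mm10 were used. Tool versions and the gene annotation are not given in the sources used here. What was deposited are log2 values that the authors made with the variance-stabilising transformation of DESeq2, in 4 tables of 1 pair of groups each. Genes without reads sit at a floor of 7.69 in both tables with old runners, 7.45 in that of the controls and 6.73 in that of the young mice.

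Reads recovered by inverting the transformation were whole within 0.02 in 100% of cases, and libraries held in 2 tables had 0 different reads. Size factors were medians of ratios over 10173 genes with reads in all 16 libraries. Of the 23222 symbols, 95.6% matched 1 GENCODE M21 gene, and 21 per table had been turned into dates. O4ex, Y4ex and the control columns equal no title and were matched to their group only. Each table was fitted with limma 3.58.1 in R 4.3.3 (2-sided, eBayes with a variance trend) on genes that exceeded the floor by 1 or more in 4 or more libraries, with Benjamini-Hochberg adjustment over all genes tested and a threshold of 0.05. The averaged and the age-dependent running effects came from 1 fit of both running tables, whose transformations differ in their floor. The procedure was tested on simulated data. Python 3.11.15 read the tables and drew the plots. No molecular identifiers are mentioned, so PCR copies count as reads.

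All 10 members were named in every comparison. Other genes were named by a rule: of each pathway list, the genes past the threshold and the 1 with the smallest p; the 3 genes most correlated with each member that passed; and annotated genes that overlap a member. Members and lists were chosen with earlier results of these data known. Alternatives were other filters, median centring, library weights, eBayes without trend or robust, voom, removal of a trend on exon length (lowess span 0.3), a replicate block and leaving out each library. Leaving out Oc1 and Yc4 together was chosen after the data were seen.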

Additional observations from a re-analysis of the deposited data

Results flagged for a closer look

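In 3 of the 40 groups of 4 libraries examined (10 members in 4 groups), 1 library lay far from the rest of its group, with a gap to its neighbour, as a share of the group's whole range, above Dixon's critical value for 4 values at 95%. Chance gives about 1 such group in every 20. Igf1 stood at 435.5 normalised reads in the young runner Y1ex, against 165 to 190 in the other young runners. Igf1 also stood at 72.3 in the old runner O2ex, against 17.7 to 24.5 in the other old runners. Igfbp5 stood at 10477.6 in the old control Oc1, against 3022 to 3479 in the other old controls.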

How the results depend on the processing

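Counts of members past the threshold depended on the setting where p-values lay close to it. For running in old mice the count was 1 and became 0 without the filter, without the variance trend and with voom, and 2 with library weights. For running in young mice it was 0 and became 2 with library weights (Igf1, -1.15, and Igf1r, -0.70). For old against young controls it was 0 and became 1 with median centring and with the exon length trend removed (Igf1 in both), 2 with library weights (Igf1 and Irs1) and 4 without Oc1 and Yc4. These 2 libraries were chosen after the data were seen and were the ones that overlapped for Irs1, so leaving them out widens that difference. For the averaged running effect the count was 3 and ran from 1 to 4 over the 9 alternatives, with 1 without the filter and with voom. Tsc2 passed in 9 of 9 alternatives, Igfbp5 in 5 of 9 and Igf1r in 5 of the 8 that tested it. The number of all genes passing also moved over the alternatives. It ran from 3 to 688 for running in old mice (12 in the main fit) and from 13 to 1394 in young mice (81). For old against young controls it ran from 3 to 461 (11 in the main fit), and for the average from 733 to 2544 (928). The member counts cannot be read apart from these numbers, which are ranges over the settings and not shares for each setting. Member counts under the alternatives are therefore not read as a result about the members. The cause of these moves was not tested. Leaving out 1 library gave 0 to 2 members for running in old mice, 0 to 1 for old against young controls, 1 to 3 for the averaged effect and 0 to 0 for the others. In the same order, 1 to 290, 3 to 64 and 371 to 1280 of all genes passed in these fits. Of the others, running in young mice gave 0 to 185 genes, old against young runners 0 to 3 and the difference between ages 0 to 5. Tsc2 kept its direction under every setting in both running comparisons and in the average, and missed the threshold in old mice without the filter (adjusted p = 0.0640), without the variance trend (0.0596) and with voom (1.16, adjusted p = 0.0599).

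No difference that reversed had passed the threshold. With library weights, reversed differences were Insr (0.11) and Irs2 (0.031) with running in old mice, Tsc1 with running in young mice (-0.15), Igf1r (-0.067), Insr (-0.063) and Tsc1 (0.16) in old against young runners, and Irs1 (0.038) and Ddit4 (-0.00090) in the average. With voom they were Insr with running in old mice (0.016), Tsc1 in old against young runners (0.044) and Irs1 in the average (0.055). Tsc1 in old against young runners also reversed with median centring (0.0020) and with the length trend removed (0.00082), as did Ddit4 with running in old mice (0.066, length trend) and Ddit4 in the average without Oc1 and Yc4 (-0.00052). Leaving out 1 library gave ranges that crossed 0 for Insr (-0.26 to 0.15), Irs2 (-0.45 to 0.077) and Ddit4 (-0.22 to 0.13) with running in old mice, Tsc1 with running in young mice (-0.11 to 0.19), Irs2 in controls by age (-0.37 to 0.040) and Irs1 in the average (-0.10 to 0.066). In old against young runners such ranges were those of Igf1r (-0.074 to 0.15), Insr (-0.14 to 0.18), Irs2 (-0.26 to 0.17), Tsc1 (-0.12 to 0.19) and Ddit4 (-0.095 to 0.25), and in the difference between ages those of Igfbp5 (-0.0076 to 0.66), Irs2 (-0.11 to 0.42) and Sesn1 (-0.013 to 0.29).

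No paired analysis was possible because the control columns carry no replicate number of the labels, for the running comparisons and for the controls by age. Old and young runners share numbers, but same-numbered libraries did not deviate together (correlations -0.24, 0.09, -0.40 and -0.04). With a replicate block, 0 members passed, as without it, and the genes passing went from 2 to 0. The low genes (Igf1 in old mice, Ddit4) are compressed by the deposited scale.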
